A study of Mus musculus with 8 samples.

Results

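CTCF sites centred in coding exons numbered 986 of the 104008 CTCF ChIP-seq sites of an immortalised mouse embryo fibroblast line (iMEF). A site was counted here when its centre lay in the coding part (CDS) of an exon of a protein-coding gene (mm9, GENCODE vM1), more than 3000 bp from every protein-coding transcription start site (TSS) and more than 1000 bp from every protein-coding gene 3' end. Promoters and gene ends were thereby left out, and no read count entered the choice.

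The +HOT cells had received 5 nM 4-hydroxytamoxifen for 7 days, and the -HOT cells had received the vehicle, ethanol, for the same time. Both groups were the same line, iMEF2, which carries floxed Ash2l alleles and a Cre-ER recombinase and was immortalised with an shRNA against p19Arf. HOT activates Cre-ER, which removes exon 4 of Ash2l, a core subunit of the KMT2 complexes that methylate lysine 4 of histone H3. The +HOT cells stop proliferating during the treatment and were passaged less often than the -HOT cells, so the effect of the deletion cannot be told apart from that of HOT itself or of the growth arrest. Each group had 2 CTCF immunoprecipitations, numbered R1 and R3 in the deposited table, and the 4 inputs were not analysed here.

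Depth differed with the treatment, with 9280701 and 7653295 site reads in +HOT R1 and R3, against 4221752 and 3126722 in -HOT R1 and R3. The libraries come from 1 cell line and are described by the study as technical replicates, and p-values therefore cover only how far these samples varied, which may be technical. Since the inputs were not used, reads are reported here as reads and not as CTCF binding.

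CTCF is a zinc finger protein that binds a long DNA motif, blocks the sliding of cohesin and thereby anchors chromatin loops. Most of its sites lie between genes, in introns or near promoters. In a coding exon the same bases serve as a CTCF motif and as codons, and near an exon edge they also serve as a splice signal. CTCF bound within genes is known to affect pausing of RNA polymerase and the inclusion of nearby exons.

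The motif was described by a matrix of 20 positions learned from the strongest sites of the whole table, whose most frequent bases are given here with capitals at positions that carry at least 1 bit of information.

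CTCF matrix, most frequent bases: tggCCaccAGggGGCgccag

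The best match of the matrix is printed below in capitals for the sites with the smallest p among those gained and lost in +HOT, and for the strongest sites. Each is given with 20 bases on either side (mm9), 5' to 3' on the strand of the match. These sites are shown as examples, and none of the strongest sites was gained or lost. In the first set, reads were gained in +HOT.

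Rtl1, chr12:110833304-110833363, plus strand: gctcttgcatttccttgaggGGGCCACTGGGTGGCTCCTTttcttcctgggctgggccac
Lama2, chr10:26984700-26984759, plus strand: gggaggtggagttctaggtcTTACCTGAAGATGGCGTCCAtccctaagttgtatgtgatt
Rasgef1a, chr6:118038148-118038207, plus strand: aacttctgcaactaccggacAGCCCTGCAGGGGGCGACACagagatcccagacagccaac
Flt4, chr11:49450131-49450190, plus strand: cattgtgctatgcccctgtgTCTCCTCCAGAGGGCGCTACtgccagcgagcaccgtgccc
Supt3h, chr17:45178205-45178264, minus strand: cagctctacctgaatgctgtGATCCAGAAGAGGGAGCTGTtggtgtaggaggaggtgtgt

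In the second set, reads were lost in +HOT. The score of the best match anywhere in these sites was 8.01 bits at Lca5l, 5.98 bits at Kbtbd11, which is below the threshold of 7.1 bits, and 15.8 bits at Lnp. At Lca5l the printed match lay 300 bp from the centre of the site, and a match near the centre also scored 8.01 bits.

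Lca5l, chr16:96380737-96380796, plus strand: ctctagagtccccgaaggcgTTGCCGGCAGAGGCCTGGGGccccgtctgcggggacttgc
Kbtbd11, chr8:15027434-15027493, plus strand: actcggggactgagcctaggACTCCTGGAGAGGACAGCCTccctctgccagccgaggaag
Lnp, chr2:74385901-74385960, plus strand: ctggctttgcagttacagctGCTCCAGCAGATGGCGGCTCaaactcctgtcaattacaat

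The third set is of the strongest sites, with 15.4 bits at Def6 and 22.4 to 23.7 bits at the others.

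Trp53i11, chr2:93039180-93039239, minus strand: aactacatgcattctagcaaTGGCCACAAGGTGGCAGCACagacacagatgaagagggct
Def6, chr17:28363194-28363253, plus strand: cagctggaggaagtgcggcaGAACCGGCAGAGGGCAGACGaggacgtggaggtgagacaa
Ksr1, chr11:78832969-78833028, plus strand: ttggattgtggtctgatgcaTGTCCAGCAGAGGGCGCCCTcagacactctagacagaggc
Zfp219, chr14:52628648-52628707, plus strand: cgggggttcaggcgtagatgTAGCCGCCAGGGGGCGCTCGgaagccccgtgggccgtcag

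At Trp53i11 and Ksr1 the best match lay outside the coding exon, although the centre of the site lay in it. At the gained Flt4 site the printed match also did not lie wholly in the exon of the centre. The best score near its centre was 0.404 bits. The site at Ksr1, 1 of 42 with at least 2 separate matches of 13 bits or more, held 4 such matches. At Zfp219 and Def6 the best match lay wholly within coding bases.

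The 986 sites lay in 913 genes, of which 853 had 1 such site, 53 had 2 and 7 had 3 or more. Internal exons held 833 of the centres, last exons 152 and a first exon 1. The exons had a median length of 181 bp, against 128 bp over 138673 coding exons past the same limits. Exons of 500 bp or more held 248 of the sites, and made up 7.0% of those 138673 exons. A longer exon offers more positions for a centre, and each exon was counted once. These figures therefore cannot show a preference for long exons. The sites had a median length of 401 bp, a median of 50.2% of their bases were coding, and 610 (61.9%) extended over the whole exon. Only 128 lay entirely within coding sequence, so most of these sites also cover intron. Mean normalised reads ranged between 5.3 and 403 per site with a median of 39.2, against 29.1 for the 39090 sites in introns. Their base composition differed from that of the intron sites. Median GC was 53.0% against 43.4% in introns, and 9.84% against 0.304% were CpG-island-like, that is, GC above 50% and an observed to expected CpG ratio above 0.6 in 500 bp.

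A match to the CTCF matrix within 100 bp of the centre was present in 806 of the 986 sites (81.7%). In windows 1000 bp away this share was 9.84%, and in intron sites it was 88.0%. Counted over the whole length of the site, 876 (88.8%) held a match. The best score near the centre had a median of 13.4 bits over all coding-exon sites, against 15.5 bits over all intron sites. Among the sites with a match, the medians were 14.5 and 15.7 bits. The match lay inside the coding exon in 636 sites, across its edge in 95 and outside it in 75.

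How often a motif is occupied was asked from the other side, with every match to the matrix in the genome that passed the same distance limits. Coding exons held 643 matches per megabase and introns 334, while sites were at 43.3 and 47.1 per megabase. For matches of 13 bits or more the densities were nearer to each other, at 70.9 per megabase in coding exons and 63.4 in introns. Of 14632 matches in coding exons 1243 (8.5%) lay in a site, and of 277425 matches in introns 50433 (18.2%) did. The gap depended on the score. Among matches of 13 to 16 bits, 24.9% lay in a site in coding exons against 44.5% in introns, and among those of 16 to 19 bits the shares were 57.2% (202 of 353) and 74.1%. At 19 bits or more, 93.3% (126 of 135) of the matches in coding exons lay in a site, close to the 94.3% in introns. Match score and site calls share the sequence and the read depth, so these shares are a description without a test. The matrix was learned from sites of all locations.

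**Figure D1:**
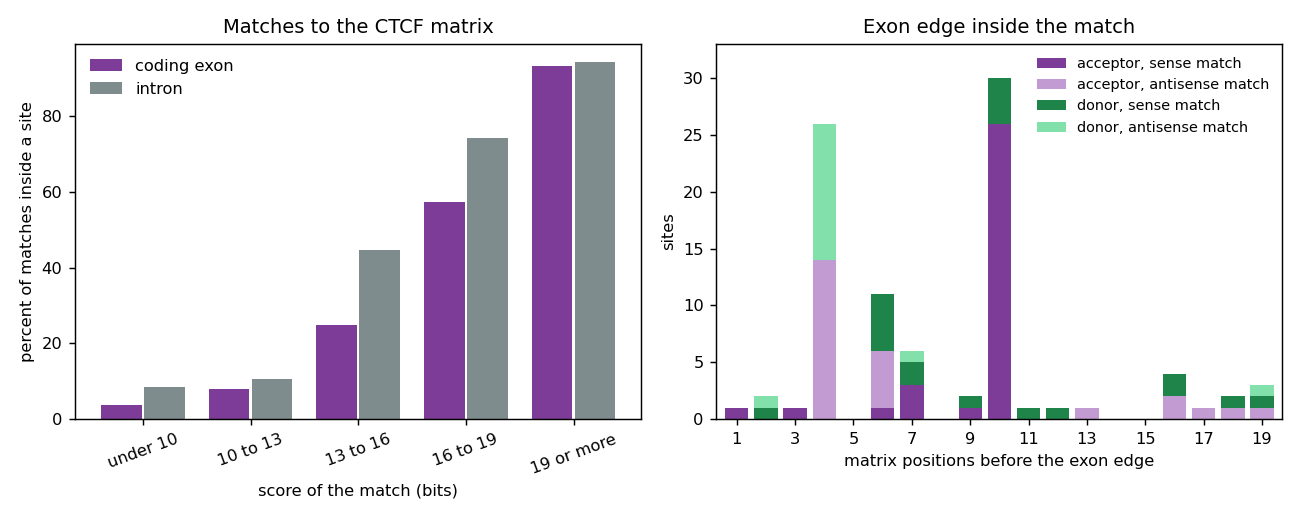
Left, percent of matches to the CTCF matrix that lie inside a CTCF site (y axis, from 0) by score of the match in bits (x axis), for coding exons and introns. The bars are 24.9% against 44.5% at 13 to 16 bits and nearly level at 19 bits or more. Right, number of sites (y axis) by the count of matrix positions before an exon edge that falls inside the match (x axis), stacked by splice acceptor or donor and by strand of the match relative to the gene, with 26 sites at an acceptor after position 10.

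Within exons, the position of the motif in the reading frame was uneven. Among the 636 matches inside exons, the first base of a match on the coding strand was the third base of a codon in 136, the first base in 98 and the second base in 40 (6.29% of the 636). For matches on the opposite strand, the base counted was the last of the match, which comes first in the direction of the gene. It was the third base of a codon in 157, the first base in 98 and the second base in 107. The same order on the coding strand was present among all matches in coding sequence, with or without a site (26.3%, 15.9% and 7.22%). Over all 806 matches near the centre, inside exons or not, 360 were on the coding strand and 446 on the opposite strand.

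An exon edge fell inside the match in 92 sites, and the splice acceptor was the most common kind. In 26 of them, the match on the coding strand had position 10 as the last base of the intron, so that the AG at positions 9 and 10 of the match was the AG that ends the intron. The examples below are printed with the match in capitals and 10 bases on either side (mm9, strand of the gene), because they show the overlap directly.

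Rsad1, chr11:94405463-94405502, minus strand: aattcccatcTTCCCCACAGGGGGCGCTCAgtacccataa
Pde3a, chr6:141437300-141437339, plus strand: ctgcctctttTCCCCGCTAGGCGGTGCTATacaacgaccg
Golga2, chr2:32160134-32160173, plus strand: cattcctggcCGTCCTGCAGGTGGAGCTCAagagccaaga
Farsb, chr1:78451427-78451466, minus strand: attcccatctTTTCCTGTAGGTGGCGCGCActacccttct

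The exon begins after the AG in the middle of each capital run. With the match on the other strand, the acceptor fell after position 4 in 14 sites and the donor after position 4 in 12 sites, and each other arrangement was seen in 5 sites or fewer. At Lama2, printed above, the donor lay after position 4 of the match.

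The main comparison asked whether these sites changed upon HOT treatment. Of the 947 sites that passed the count filter, 21 (2.22%) gained reads in +HOT, by between 2.03-fold and 3.58-fold, and 9 (0.95%) lost reads, by between 2.03-fold and 2.89-fold. Over all 99560 tested sites, 3.9% were gained and 1.5% were lost, and in introns 2.83% and 0.627%. A site was gained or lost when edgeR's quasi-likelihood test gave a Benjamini-Hochberg adjusted p under 0.05 over all tested sites and the log2FC of +HOT over -HOT was above 1 or below -1. By adjusted p alone, 73 (7.71%) of the coding-exon sites were higher and 103 (10.9%) lower in +HOT, beside 9.45% and 9.08% over all sites. Both groups stood apart, without overlap of their libraries, at 526 coding-exon sites (55.5%) and at 56.8% of all tested sites. Both called shares were thus below those over all sites, and so was the share of sites that stood apart. The balance of higher and lower sites depended on the scaling, with 84 higher and 77 lower by total counts, 47 and 56 with scaling along site strength, and 76 and 39 when GC was added to that scaling. Scaling along site strength gave 17 gained and 12 lost sites. Over all sites, the main fit called 3878 gained and 1491 lost. Scaling along site strength called 2411 and 1909 over all sites, and DESeq2 1722 and 697. Without the -HOT library R1, 12 sites were gained, of which 7 were among the 21, and DESeq2 called 11 gained and 3 lost. Of the 9 lost sites, 7 were called lost without +HOT R1, 5 without +HOT R3, and 4 without -HOT R1 or -HOT R3.

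The gained sites lay in genes of varied function. The strongest was in Rtl1, an imprinted gene derived from a retrotransposon, in its 6295 bp last exon (chromosome 12, 110832762 to 110833607). It held 165 and 188 normalised reads in +HOT, against 76.5 and 93.6 in -HOT (log2FC 1.07 with an SE of 0.15, edgeR adjusted p = 4.6e-07). Both +HOT libraries were well above both -HOT libraries, but the log2FC was 0.90 without the -HOT library R1 and 0.98 without the +HOT library R3. Here and below, normalised reads are counts scaled to the mean effective library size, and the libraries are given as R1 and R3 of each group.

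Lama2 encodes a laminin chain of the muscle basement membrane. Its site in exon 14 of 65 (chromosome 10, 26984534 to 26984921) held 76.8 and 85.8 reads in +HOT, against 33.8 and 19.9 in -HOT (log2FC 1.54 with an SE of 0.25, edgeR adjusted p = 7.1e-06). Supt3h encodes a subunit of the SAGA coactivator complex. The site in its exon 9 (chromosome 17, 45178030 to 45178431) had 52.1 and 45.2 reads in +HOT and 11.8 and 15.9 in -HOT, with the largest fold of the named sites (3.58-fold, SE of log2FC 0.34, edgeR adjusted p = 5.49e-05). Rasgef1a, an exchange factor for Ras-like GTPases, was close to it. Its exon 10 site (chromosome 6, 118037967 to 118038384) had 50.8 and 78.0 reads in +HOT and 20.6 and 13.9 in -HOT (3.56-fold, edgeR adjusted p = 1.17e-05). These 3 sites were low in both -HOT libraries.

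Flt4, the receptor of lymphatic endothelium for vascular growth factors, had 93.1 and 105 reads in +HOT, against 33.8 and 49.8 in -HOT, at exon 19 (chromosome 11, 49449958 to 49450553; 2.42-fold). The exon 20 site of Nrcam (chromosome 12, 45671024 to 45671465), a neuronal adhesion molecule, had 58.0 and 52.3 in +HOT and 27.9 and 13.9 in -HOT (2.51-fold), and was the 1 gained site with no match anywhere (best score 4.43 bits).

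Further gained sites named by rule were in Smoc1, a secreted matrix protein, Otog, a protein of the membranes over inner ear hair cells, and Fbxw24, an F-box gene. The Smoc1 site held 87.3 and 74.9 reads in +HOT and 35.3 and 41.8 in -HOT (2.14-fold). The Otog site held 57.3 and 82.7 in +HOT and 22.1 and 37.8 in -HOT (2.39-fold). The Fbxw24 site, whose match scored 21.8 bits, held 55.4 and 62.4 in +HOT and 20.6 and 27.9 in -HOT (2.46-fold). Besides Rtl1, several of these sites missed a threshold without the -HOT library R1. The log2FC was then 0.97 at Flt4, 0.95 at Smoc1 and 0.86 at Otog, and at Fbxw24 the edgeR adjusted p was 0.0591. The log2FC also fell short of 1 at Smoc1 without +HOT R1 (0.98) and with scaling along site strength (0.86), at Otog without +HOT R3 (0.99) and at Nrcam without -HOT R3 (0.97).

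Gained sites also lay in Pcdh17, Ryr1, Ttn, Atp8a1, Krt5, Dsg2, 2410002I01Rik, Abca15, Capn9, Cdh15 and Fam59b. They include the giant muscle protein Ttn, at 67.7 and 78.0 reads in +HOT and 26.5 and 43.8 in -HOT, and the keratin Krt5, at 38.4 and 39.8 in +HOT and 14.7 and 17.9 in -HOT, both chosen after their values were seen. Of the 21 gained sites 19 had a match near the centre, 1 was CpG-island-like, and median GC was 54.4%.

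The lost site with the smallest p lay in exon 11 of Lca5l (chromosome 16, 96380728 to 96381407), with 29.3 and 26.5 normalised reads in +HOT, against 78.0 and 85.6 in -HOT (log2FC -1.53 with an SE of 0.24, edgeR adjusted p = 2.23e-06). Kbtbd11, a kelch-repeat protein, had 15.6 and 10.1 reads in +HOT and 33.8 and 41.8 in -HOT in its 6680 bp last exon (chromosome 8, 15027327 to 15027614; log2FC -1.5). Unc13a, which primes synaptic vesicles for release, had 23.4 and 25 in +HOT and 48.5 and 55.7 in -HOT in its last exon (chromosome 8, 74153362 to 74153685; log2FC -1.09). All 3 were CpG-island-like, with 72.2%, 64.4% and 67.6% GC.

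The lost site in exon 8 of Lnp, the lunapark protein of the endoplasmic reticulum, was AT-rich (31.0% GC) and held a match of 15.8 bits. It had 24.7 and 19.5 reads in +HOT and 60.3 and 37.8 in -HOT (log2FC -1.17), and without the -HOT library R1 the log2FC was -0.77 (edgeR adjusted p = 0.302). Zcchc8, a subunit of the nuclear exosome targeting complex, had 12.4 and 14 in +HOT and 26.5 and 31.8 in -HOT. Hdgfrp2, a protein with a PWWP domain, had 19.5 and 11.7 in +HOT and 25 and 41.8 in -HOT. Zcchc8 and Hdgfrp2 were close to the threshold, and each lost its call without the -HOT library R3, at an edgeR adjusted p of 0.174 and 0.422. The same was true without -HOT R1 or +HOT R1 at Zcchc8 (0.0977 and 0.0849), and without +HOT R3 at Hdgfrp2 (0.195).

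Larp1, Atg9b and Fbln2 held the other lost sites, with fewer than 20 mean reads each. Of the 9 lost sites 4 were CpG-island-like, 7 had a match near the centre, and the median best score was 8.01 bits, against 13.4 bits at the gained sites. By exon length, 2 gained sites (0.833%) and 7 lost sites (2.92%) were among 240 tested in exons of 500 bp or more, and 19 gained (2.69%) and 2 lost (0.283%) among 707 tested in shorter ones, beside 3.9% gained and 1.5% lost over all sites. Of the 95 sites with a match across the exon edge, 94 were tested and 6 of these (6.38%) were gained, beside 3.9% over all sites, and DESeq2 called 1 of them gained.

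**Figure D2:**
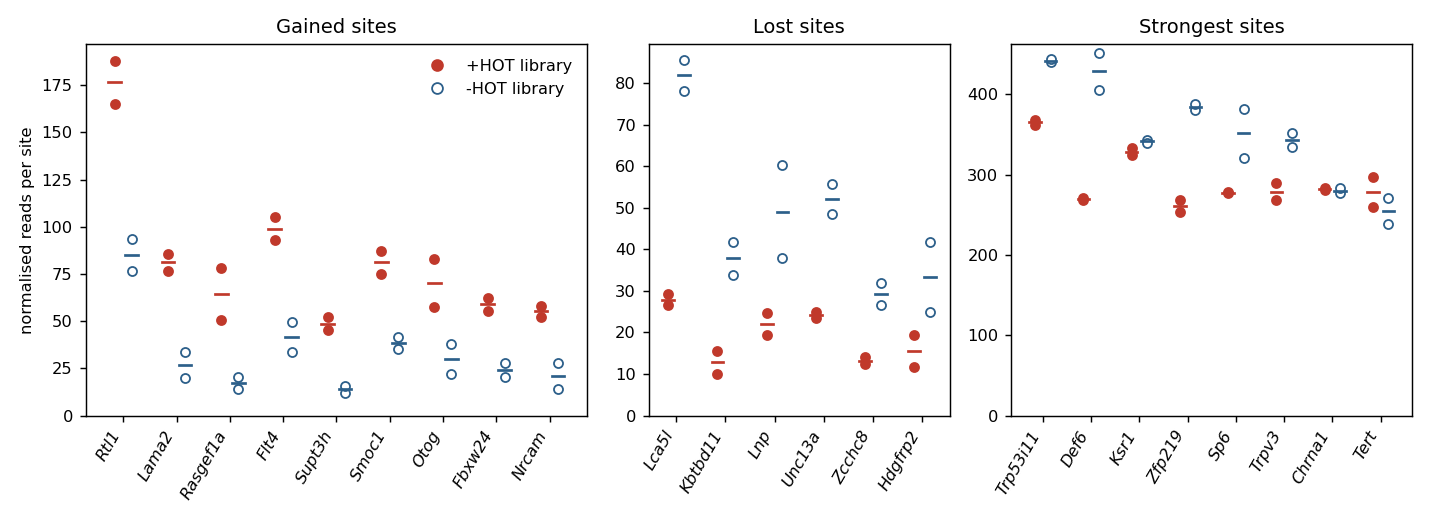
Normalised reads per site (y axis, from 0) in each library at the gained, lost and strongest coding-exon sites named by rule (x axis, by gene). Filled points are the +HOT libraries, open points the -HOT libraries, and short lines their means (n = 2 each). The gained and lost sites shown were chosen among those whose groups do not overlap, with Rtl1 at 165 and 188 in +HOT against 76.5 and 93.6 in -HOT.

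**Figure D3:**
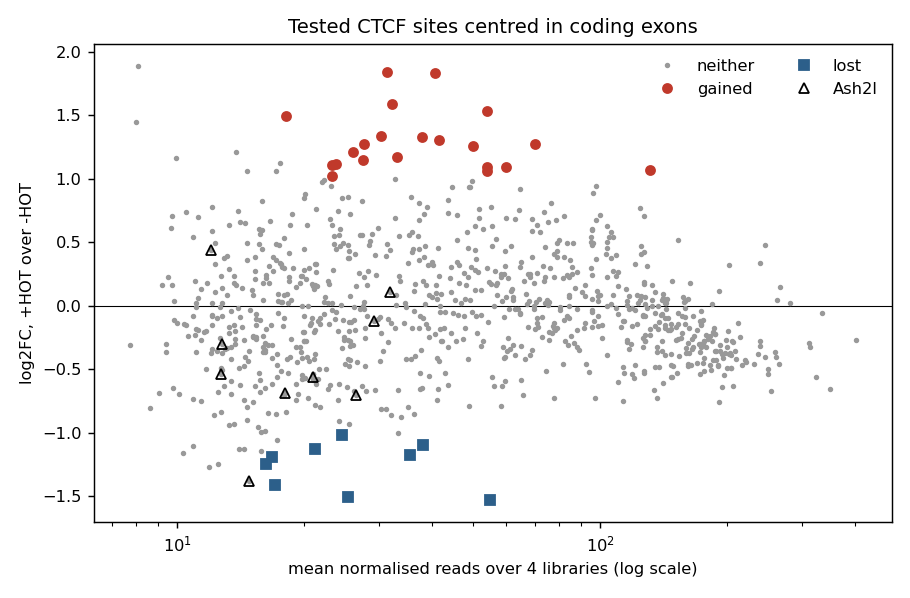
The log2FC of +HOT over -HOT (y axis) against mean normalised reads over the 4 libraries (x axis, log scale) for the 947 tested coding-exon sites, 1 point per site. The 21 gained sites (circles) and 9 lost sites (squares) lie among the weak and middling sites, most points at the right end lie below 0, and triangles mark the 9 sites of Ash2l.

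Over the 947 tested sites the median log2FC was -0.08 (quartiles -0.35 and 0.25). It was 0.02 in introns, 0.01 over all sites and -0.31 at the 15070 promoter sites, so coding exons stood slightly below introns and well above promoters. The difference from introns turned with a scaling along site strength and GC, which was chosen after seeing the data, to 0.003 in coding exons against -0.03 in introns. Coding-exon sites took 1.04% and 1.05% of site reads in +HOT (mean 1.04 ± 0.00706, SD), against 1.06% and 1.09% in -HOT (1.08 ± 0.0179). The groups did not overlap, and the exact permutation test gave p = 0.33 (two-sided), the smallest that 2 libraries against 2 allow.

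The strongest sites were lower in +HOT, whereas sites of middling strength were not. At 40 to 80 mean normalised reads the median log2FC was 0.09 in coding exons and 0.25 in introns. At 160 or more it was -0.33 in coding exons, where 55 of 102 sites (53.9%) were lower by adjusted p, and -0.31 in introns, where 47.0% were. The trend with strength was thus present in both locations. With scaling along site strength, which removes such a trend by construction, the median at 160 or more was -0.07 in coding exons and -0.03 in introns, and with GC added it was 0.06 and -0.04.

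Base composition went with the change as well. Among the 55 coding-exon sites with 65% GC or more, the median was -0.38, with 21 (38.2%) lower and 3 (5.45%) lost. In intron sites of that composition the median was -0.50, with 41.1% lower and 10.7% lost. Over all tested sites 9.08% were lower and 1.5% lost. CpG-island-like coding-exon sites had a median of -0.32 (27 of 96, 28.1%, lower and 4, 4.17%, lost), against -0.05 at the others. Island-like intron sites had a median of -0.41, with 33.6% lower and 4.31% lost. The value in coding exons too depended on the scaling. The median of the island-like sites there was -0.22 with scaling along site strength and 0.12 when GC was added. Sites without a match near the centre had a median of -0.25 over 174 sites, against -0.05 over 773 with a match. In last exons the median was -0.11 and in internal exons -0.08, and by strand of the match it was -0.003 on the coding and -0.08 on the opposite strand. These groups of sites overlap each other, and their parts in the change were not tested separately.

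**Figure D4:**
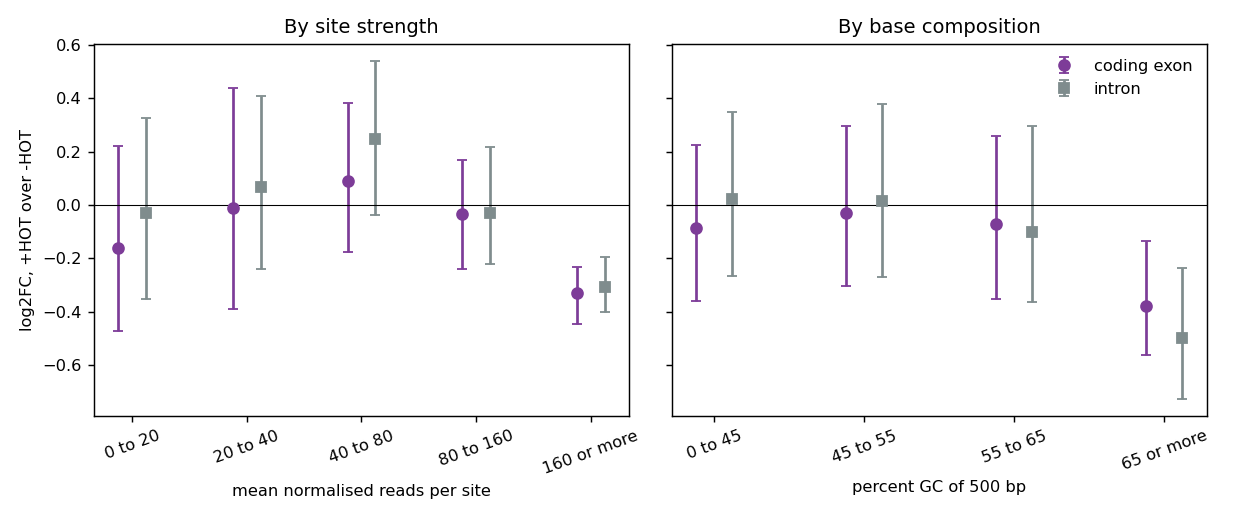
Median log2FC of +HOT over -HOT (y axis; bars span the quartiles over sites) by mean normalised reads per site and by percent GC of 500 bp (x axes), for coding-exon and intron sites. Both locations are lowest in the strongest class, at -0.33 and -0.31, and in the class with the highest GC, at -0.38 and -0.50.

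The strongest coding-exon sites showed this in single values. Def6, an exchange factor of lymphocytes, had 271 and 268 normalised reads in +HOT, against 405 and 452 in -HOT, at exon 9 (chromosome 17, 28362874 to 28363500; log2FC -0.66 with an SE of 0.09, edgeR adjusted p = 9.84e-08). Zfp219, a zinc finger protein, had 254 and 268 in +HOT and 381 and 388 in -HOT in its 1435 bp exon 3 (chromosome 14, 52628323 to 52629003; log2FC -0.56, edgeR adjusted p = 5.88e-06). Trp53i11, a target of p53, had the most reads of all, 368 and 362 in +HOT against 440 and 444 in -HOT (chromosome 2, 93038933 to 93040168; log2FC -0.27, edgeR adjusted p = 0.0127). All 3 were lower in both +HOT libraries by less than 2-fold, and the call at Trp53i11 was lost with DESeq2 (adjusted p = 0.128) and without the -HOT library R1 (edgeR adjusted p = 0.0754).

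Sp6, a transcription factor of skin and tooth, and Trpv3, a warmth-sensing channel of keratinocytes, were lower in +HOT as well. Sp6 had 277 and 278 reads in +HOT and 321 and 382 in -HOT, and Trpv3 had 290 and 268 in +HOT and 334 and 352 in -HOT (edgeR adjusted p = 0.0095 and 0.0195). The call at Sp6 was lost with DESeq2 (adjusted p = 0.101) and without the -HOT library R3 (edgeR adjusted p = 0.228). At Trpv3 it was lost with DESeq2 (adjusted p = 0.14), with total counts (0.0513), and without +HOT R3, -HOT R1 or -HOT R3 (edgeR adjusted p = 0.0985, 0.0586 and 0.11). At Ksr1, a scaffold of RAF and MEK, the values were 333 and 324 in +HOT against 343 and 340 in -HOT (log2FC -0.06, SE 0.09). Chrna1, a muscle acetylcholine receptor subunit, had 284 and 281 in +HOT against 277 and 283 in -HOT, and Tert, the catalytic subunit of telomerase, had 297 and 260 in +HOT against 238 and 271 in -HOT, and neither passed the test. With scaling along site strength Trp53i11 turned to a log2FC of 0.27 (edgeR adjusted p = 0.0102), Def6 and Zfp219 were at -0.17 and -0.09 and no longer passed, and Ksr1, Chrna1 and Tert passed as higher at 0.43, 0.44 and 0.55. The direction at strong sites therefore rests on the scaling.

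Ash2l itself had more such sites than any other gene, 9, in exons 4, 5, 7 and 9 to 14 of 16 (chromosome 8, minus strand, 26928939 to 26946648). All 9 extended over the whole exon and ended between 0 and 106 bp beyond its edges, whereas 61.5% of the other 977 sites covered their exon. None of the 9 had a match near the centre, with best scores between -9.91 and 5.25 bits, and 2 had one somewhere in the site. Of the other sites, 17.5% had no match near the centre. The exon 4 site, over the exon that Cre removes, held 6.51 and 14.8 normalised reads in +HOT and 17.7 and 11.9 in -HOT, and the groups overlapped.

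Summed over the 9 exons, normalised reads were 84.7 (R1) and 236 (R3) in +HOT, against 229 (R1) and 165 (R3) in -HOT. The sum was thus 2.78 times higher in R3 than in R1 of the +HOT libraries, and R3 was higher at all 9 exons, while over the other coding-exon sites the ratio was 0.994. The means of 160 ± 107 in +HOT and 197 ± 45.4 in -HOT (SD, n = 2 each) did not differ beyond this spread (exact permutation p = 1, two-sided, with 0.33 the smallest possible). None of the 9 sites was gained or lost by edgeR or by DESeq2, and 1 was lower at an unadjusted p under 0.05. That one, over exon 7, had 2.60 and 14.8 reads in +HOT and 27.9 and 13.9 in -HOT (log2FC -1.38, edgeR adjusted p = 0.0515). Without the +HOT library R3, 2 of the 9 were called, and 1 was called with DESeq2 size factors, without a count filter, with the replicate number as a block or without the -HOT library R3. Why reads in Ash2l follow its exons was not tested.

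**Figure D5:**
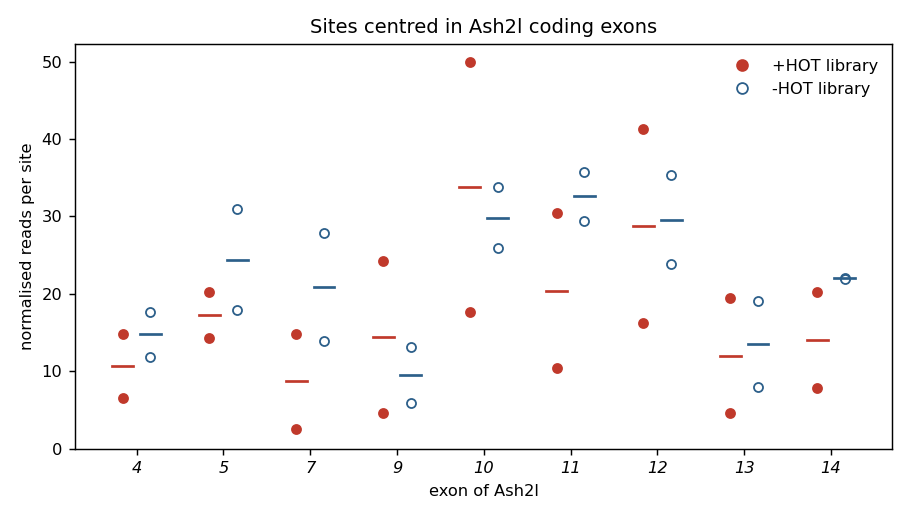
Normalised reads per site (y axis, from 0) at the 9 sites centred in Ash2l coding exons (x axis, exon number), for each +HOT library (filled) and each -HOT library (open), with lines at the means (n = 2 each). The 2 +HOT libraries are far apart at most exons, for example 17.6 and 49.9 at exon 10, with 33.8 and 25.9 in -HOT.

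Spnb4, Ttn and Nrp2 each had several coding-exon sites, with matches in most of them. Spnb4, a spectrin of axon initial segments, had 3 sites, each with a match, that summed to 310 and 317 reads in +HOT, against 343 and 380 in -HOT. The Ttn sites were in exons 8, 44 and 339, and the exon 44 site alone was gained (log2FC 1.09, edgeR adjusted p = 0.000861), against -0.03 and 0.01 at the others. Nrp2, a semaphorin receptor, had 3 sites at 236 and 240 reads in +HOT and 277 and 279 in -HOT. Apart from the Ttn site in exon 44, no site of Spnb4, Ttn or Nrp2 passed both thresholds.

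Gene classes, grouped by symbol, held 5 to 22 of these sites each, and calls in them were few. Each class is a list of symbols and does not hold every gene of its kind. Over all tested sites 3.9% were gained and 1.5% lost, and in classes this small the shares rest on single sites. Of 6 sites in genes listed as cadherin superfamily, 2 (33.3%) were gained, in Pcdh17 and Cdh15, with none by DESeq2. The gained Dsg2 site was outside this list. The Pcdh17 site, in its 5091 bp first exon, had 44.9 and 46.8 reads in +HOT and 20.6 and 19.9 in -HOT (log2FC 1.17, edgeR adjusted p = 0.00452), and without the -HOT library R1 the p was 0.0743. Cdh15, the cadherin of muscle, had 39.1 and 25.7 in +HOT and 20.6 and 7.96 in -HOT. Among 18 tested ion channel sites the median log2FC was 0.25 and 1 (5.56%) was gained, in exon 47 of 106 of Ryr1, the calcium release channel of muscle. It had 62.5 and 81.1 reads in +HOT and 19.1 and 53.7 in -HOT (log2FC 1.06), and it rested on the -HOT library R1, without which the log2FC was 0.39 (edgeR adjusted p = 0.507).

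Genes listed as matrix and adhesion held 22 sites, with Lama2 gained and Fbln2 lost (4.55% each, beside 3.9% gained and 1.5% lost over all sites). The gained Smoc1 and Nrcam sites were outside this list. The Fbln2 site, in a fibulin of elastic fibres, had 11.7 and 7.02 reads in +HOT and 22.1 and 23.9 in -HOT, and its call was lost without +HOT R3, -HOT R1 or -HOT R3 (edgeR adjusted p = 0.205, 0.235 and 0.207). The 22 sites of ubiquitin ligases and proteases held 1 gained site (4.55%), in Fbxw24, and none lost by edgeR or DESeq2 (3 lower at an unadjusted p under 0.05). Zinc finger genes had 17 sites, of which 14 lay in exons of 500 bp or more, with a median log2FC of -0.15. In motor proteins (22 sites) the median was -0.11, and the strongest site, in exon 36 of Myo10, a myosin of filopodia, had 227 and 225 reads in +HOT and 290 and 293 in -HOT (log2FC -0.36, edgeR adjusted p = 0.00619). In small GTPase regulators the strongest site, in Arhgef18, had 189 and 198 in +HOT and 250 and 287 in -HOT (log2FC -0.46, edgeR adjusted p = 0.00117). Myo10 turned to 0.03 and Arhgef18 moved to -0.12 with scaling along site strength, and neither then passed. Myo10 also lost its call with DESeq2 (adjusted p = 0.0841) and without the -HOT library R1 (edgeR adjusted p = 0.0563).

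Solute carriers (13 tested, median log2FC -0.04), collagens (4 tested, 0.21), semaphorins and plexins (5, -0.12) and chromatin regulators (16, of which 9 are the Ash2l sites, -0.14) had no gained and no lost site by edgeR or DESeq2. The same held for the sites listed under zinc finger genes, motor proteins and small GTPase regulators. The gained Rasgef1a site was outside the last of these lists. By adjusted p alone, 3 solute carrier sites, 1 collagen site, 1 zinc finger site, 1 motor protein site and 1 small GTPase regulator site were higher, and 2 zinc finger sites, 2 motor protein sites and 2 small GTPase regulator sites were lower. At an unadjusted p under 0.05, 3 solute carrier sites, 1 collagen site, 1 zinc finger site, 2 motor protein sites and 1 small GTPase regulator site were higher. By the same measure 2 zinc finger sites, 4 motor protein sites, 3 small GTPase regulator sites and 1 chromatin regulator site, in Ash2l, were lower, and no semaphorin or plexin site was either. Over all tested sites, 9.45% were higher and 9.08% lower by adjusted p. No such share is given for the unadjusted p, so the counts by it are not a result about these classes. At the strongest sites of the solute carrier, semaphorin and chromatin regulator classes no difference passed the test. Slc9a7, a sodium proton exchanger, had 184 and 154 reads in +HOT against 153 and 203 in -HOT. Sema4b had 168 and 159 in +HOT against 172 and 187 in -HOT, and Kdm6b, a histone demethylase, had 134 and 105 in +HOT against 125 and 121 in -HOT.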

How the data were processed

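CTCF ChIP-seq of 2 +HOT and 2 -HOT libraries was analysed from 2 deposited tables of sites. According to the methods of the study, the authors mapped trimmed reads to mm9 with BWA, removed duplicates and blacklisted regions, and called narrow peaks with MACS2. The deposited values used here are raw read counts per site, which the authors had not normalised. The sources used here give neither versions, nor the counting tool, nor whether libraries were pooled for peak calling. Of 8 columns of values per library, 4 of raw counts were used, and 4 normalised by the authors, as well as their fold changes, p-values and lists, were not. Columns are numbered R1 and R3 and titles R1 and R2, so columns were assigned to groups only.

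Sites, whose deposited starts count from 0 and were raised by 1, were annotated with GENCODE vM1 on NCBIM37, which is mm9. Counts were tested with edgeR 4.0.16 in R 4.3.3 (TMM, filterByExpr with a minimum count of 10, robust quasi-likelihood fit) over 99560 sites, with Benjamini-Hochberg adjustment. SEs were obtained from the log2FC and its F statistic. Chi-square over degrees of freedom between replicates was 1.41 in +HOT and 1.09 in -HOT, where sampling alone gives about 1, and each library was entered separately.

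The CTCF matrix was learned from the 5000 strongest sites. Its threshold of 7.1 bits was passed by 5% of shuffled 200 bp windows. Sequences were read from NCBIM37 on both strands.

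Named sites were the 10 gained and 10 lost sites with the smallest p (non-overlapping groups, mean of at least 20 normalised reads; 6 lost sites qualified), the 8 strongest, the 5 genes with most sites, and in each of 11 gene classes the called site with the smallest p per direction or else the strongest. Of these, 1 gained site and 1 gene with several sites are not reported here. Sites and lists were chosen with earlier results of these data known. Alternatives were DESeq2 1.42.0, other scalings and filters, no fold threshold, other site rules, a replicate block and leaving out each library.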

Additional observations from a re-analysis of the deposited data

How the results depend on the processing

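Another site rule changes which sites are counted, and a median of 50.2% of the bases of the 986 sites were coding. Counts under another rule are therefore not shares of the same sites. The count of gained coding-exon sites (21) was 11 with DESeq2 (1722 against 3878 over all sites) and 73 with no fold threshold. The count of gained sites was 10 when a site had to lie in the exon by at least 50% of its length. It ranged between 12 and 28 when each library was left out. The count of lost sites (9) was 3 with DESeq2, 29 with a limit of 1000 bp from the TSS, and 103 with no fold threshold, and between 8 and 12 when each library was left out, of which 4 to 7 were among the 9. The median log2FC (-0.08) was 0.003 with scaling along strength and GC, chosen after seeing the data, and between -0.10 and -0.05 when each library was left out. The share of site reads differed by -0.0316 points, and by -0.0442 to -0.0189 points when each library was left out. With the replicate number as a block (replicate block), 22 sites were gained and 11 lost, and the median was -0.07. The correlation of R1 minus R3 between the groups was 0.03. The -HOT libraries differed little beyond sampling (chi-square over degrees of freedom 1.09). The correlation therefore cannot tell whether the numbers pair the libraries.

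Of 378 values of named sites under an alternative, 299 kept their direction and side of the threshold, 48 no longer passed, 4 passed only then and 27 changed sign. With scaling along site strength the log2FC turned to 0.27 at Trp53i11, 0.43 at Ksr1, 0.14 at Sp6, 0.17 at Trpv3, 0.193 at Slc9a7, 0.025 at Myo10, 0.106 at Sema4b and 0.007 at Kdm6b. With GC added it turned to 0.41 at Trp53i11, 0.12 at Def6, 0.565 at Ksr1, 0.22 at Zfp219, 0.52 at Sp6, 0.25 at Trpv3, 0.169 at Slc9a7, 0.087 at Myo10, 0.286 at Sema4b and 0.118 at Kdm6b. The rest passed no test on either side. Chrna1 was at -0.002 with size factors, -0.004 with DESeq2 and -0.002 with a mean of at least 20 counts, and between -0.012 and 0.028 when each library was left out. Slc9a7 was at 0.011 with total counts and between -0.269 and 0.138 when each library was left out, and Kdm6b at 0.014 with total counts and between -0.227 and 0.116. Both scalings remove trends by construction. The causes of the other changes were not tested.

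The -HOT libraries held fewer reads than the +HOT libraries and limit the precision, above all at the 281 sites under 20 mean reads.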
